A study of Homo sapiens with 6 samples.

Results

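The complement system of A549 cells was examined through 9 genes: the components C3, C5, CFB, C1R and C1S, the membrane regulators CD46, CD55 and CD59, and the fluid-phase regulator CLU. They were taken by name from a table of 19876 gene symbols, and all 9 were found. C3 and CLU were chosen by their measured values, since they stood higher with rhTR11B in these same libraries, and their difference between the groups is given as a description without a test. The other 7 were listed for their place in the pathway, with earlier results of these data known. A549 is an established line of human lung adenocarcinoma, given in the labels as wild type (WT). Both groups were grown in DMEM with fetal bovine serum; 3 libraries come from cells given rhTR11B and 3 from cells given phosphate-buffered saline (PBS), the negative control. What rhTR11B stands for, its dose and its time are not stated in the labels. The labels number the libraries of each group as biological replicates and do not say whether each is its own culture; a p-value here measures the spread among these libraries.

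Complement is a cascade of plasma proteins that marks surfaces for uptake and can pierce membranes. C1R and C1S are the proteases of the classical pathway, CFB supplies the protease of the alternative pathway, C3 is the protein on which the pathways converge, and C5 opens the terminal steps that build the membrane attack complex. Host cells carry brakes: CD55 speeds the decay of the convertases that cut C3 and C5, CD46 is a cofactor for cleaving deposited C3b and C4b, CD59 blocks assembly of the membrane attack complex, and secreted clusterin (CLU) binds terminal complexes in fluid and acts as an extracellular chaperone. The liver makes most plasma complement, but epithelial cells of the lung also make several components and carry the membrane brakes.

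The libraries held 36315751 to 38148838 counts, so 3 counts, taken here as the limit that an absence of counts allows, correspond to 0.0779 to 0.0842 CPM (counts scaled to TMM-adjusted library size). rhTR11B replicate 3 stood apart from the others on the leading principal component (25.7, against 2.66 and 8.63 for the other rhTR11B libraries and -18.4 to -5.96 for PBS). The 13 mitochondrially encoded genes took 6.63% to 7.71% of counts with PBS and 7.88% to 10.4% with rhTR11B, the 10.4% being in replicate 3. The epithelial keratins KRT8, KRT18 and KRT7 were abundant, whereas EPCAM, KRT19 and CDH1 had at most 10 counts in any library. The shares of these genes and the marker sums below moved with the groups in part, and their part in the results was not tested. The alveolar type II list summed to 113 to 129.6 CPM with PBS and 138 to 163 CPM with rhTR11B. Almost all of it was ABCA3, itself called higher in edgeR (adjusted p = 0.0429), while the surfactant gene SFTPD had at most 1 count. Of 8 fibroblast markers 7 were in the table and 5 of them averaged under 10 counts. The list summed to 2.78 to 3.70 CPM with PBS and 4.35 to 6.51 CPM with rhTR11B. Most of that sum came from a single collagen gene, higher in all 3 rhTR11B libraries than in PBS (edgeR adjusted p = 0.0511). COL3A1 and LUM also had higher means with rhTR11B, at 0.132 and 0.218 CPM and 0.141 and 0.399 CPM. Their groups overlapped at 2 to 27 counts. DCN, PDGFRA, PDGFRB and THY1 had 0 to 2 counts. Macrophage markers summed to 2.78 to 4.01 and 3.59 to 4.71 CPM, with CD163, MRC1, CSF1R and MARCO at 0 or 1 count, and endothelial markers to at most 0.416 CPM.

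Per gene length, CD46, CD55, CD59 and CLU stood far above the protease genes among the 9, which are C1R, C1S and CFB. CFD, a protease gene outside the 9, had 8.97 FPKM in PBS, above CLU and CD55. CD59 had the highest level of the 9 genes in PBS cells, at 99.8 ± 2.52 FPKM (fragments scaled to gene length and library size; SD, n = 3), above 97.5% of all symbols in the table. CD46 followed at 59.4 ± 4.14 FPKM. C3 was the only component of the 5 above 1 FPKM, at 21.8 ± 2.60 FPKM, higher than 86.0% of symbols. CLU had 7.75 ± 0.926 FPKM and CD55 5.82 ± 0.425 FPKM. A gap of 15.1-fold separated CD55 from the next gene, C1R, at 0.386 ± 0.0313 FPKM. C1S had 0.274 ± 0.0634, CFB 0.143 ± 0.0225 and C5 0.0443 ± 0.0288 FPKM. No neighbours in this order overlapped in the 3 PBS libraries, although CLU and CD55 came close (lowest CLU library 6.84, highest CD55 library 6.28 FPKM), as did C1R and C1S (0.352 and 0.323 FPKM). With rhTR11B the order of the upper 6 genes held without overlap between neighbours, while C1S and CFB overlapped.

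**Figure D1:**
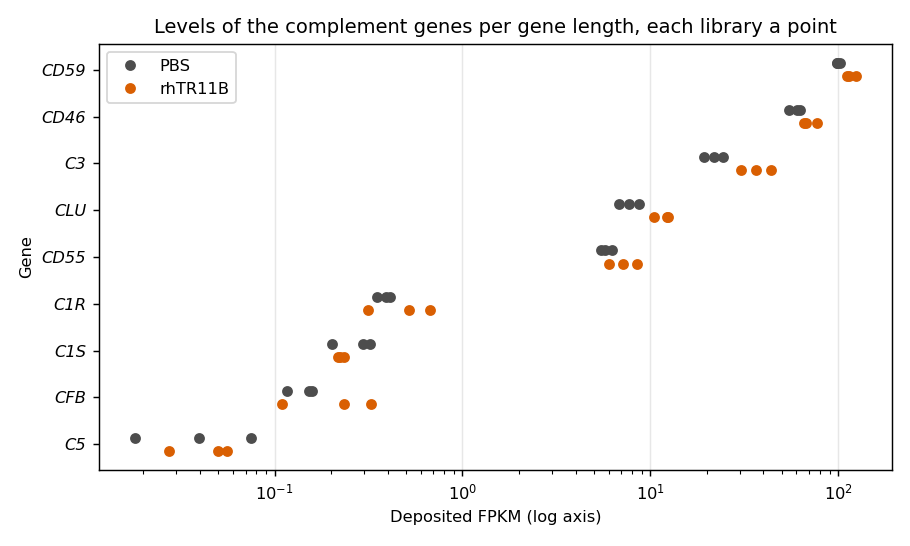
Deposited FPKM of the 9 complement genes on a log axis, one point per library, PBS in grey and rhTR11B in orange, ordered by the PBS mean. CD59, CD46, C3, CLU and CD55 lie above 5 FPKM in every library, and C1R, C1S, CFB and C5 lie below 1 FPKM.

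C3, the central component (chromosome 19, 6677704 to 6720650, GRCh38.p14), had 127, 99.2 and 114 CPM in PBS replicates 1, 2 and 3 and 159.7, 229 and 195 CPM in rhTR11B replicates 1, 2 and 3. Every rhTR11B library lay above every PBS library, and replicate 2 was the highest of the 6. These CPM rest on 3820 to 8541 counts per library, so counting alone would give a coefficient of variation of 1.52% in PBS and 1.19% in rhTR11B; the observed values were 12.3% and 17.8%. The log2 fold change of the edgeR fit was 0.78 (SE 0.10), a 1.72-fold difference, and it is the value that brought the gene into the list. Leaving out rhTR11B replicate 2 gave 0.64, leaving out rhTR11B replicate 1 gave 0.90, and leaving out rhTR11B replicate 3 gave 0.78. In a bulk sample, more cells expressing a gene and more of its RNA per cell cannot be told apart.

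CFB, the alternative pathway's protease (chromosome 6, 31946095 to 31952084), works on C3 directly. Its counts were 14, 11 and 15 in PBS cells and 10, 30 and 21 in treated cells. Replicate 1 of the rhTR11B group was the lowest of the 6 libraries and replicate 2 the highest, so the groups overlapped. The log2 fold change of 0.66 (SE 0.42) did not pass edgeR's quasi-likelihood test (adjusted p = 0.352), and its 95% interval in fold, 0.854 to 2.93, holds both no change and a change larger than that of C3. In GENCODE, 5954 bases of CFB also lie in another protein-coding gene model on the same strand, which is not analysed here and may share its reads. The gene's promoter is shown because it held 3 of the 5 motifs searched, more than that of any other member with an entry. The 250 bases before its start (chr6:31945845-31946094, plus strand, RefSeq, GRCh38.p14) are written 5′ to 3′, with capitals marking, in order, a match to the kappaB consensus at -112 to -103, a TTCNNNGAA match at -92 to -84, the palindrome that STAT factors bind, and TATAAA at -30 to -25 from the start.
CFB: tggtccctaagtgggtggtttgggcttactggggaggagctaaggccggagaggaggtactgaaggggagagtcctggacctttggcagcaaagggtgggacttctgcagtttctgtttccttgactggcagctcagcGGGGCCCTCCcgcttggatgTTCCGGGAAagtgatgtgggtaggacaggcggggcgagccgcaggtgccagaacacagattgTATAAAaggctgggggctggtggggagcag
Both strands were searched in the same window of 27326 promoters in the RefSeq table. The kappaB consensus matched in 9.6% of them, TTCNNNGAA in 6.76% and TATAAA in 11.2%. A match describes letters in a window and not a bound site.

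The classical pathway's protease genes lie near each other on chromosome 12, C1R at 7080219 to 7092445 and C1S at 7060718 to 7071032. Their fold changes had opposite signs, neither passed the test, and the difference between them was not tested. C1R had 1.02, 1.07 and 0.919 CPM with PBS and 0.823, 1.74 and 1.38 CPM with rhTR11B, which puts rhTR11B replicate 1 below and replicates 2 and 3 above all PBS libraries. C1S had 0.588, 0.857 and 0.945 CPM with PBS and 0.686, 0.643 and 0.645 CPM with rhTR11B, inside the PBS range. In edgeR, C1R had a log2 fold change of 0.39 (SE 0.29, adjusted p = 0.430) and C1S -0.28 (SE 0.32, adjusted p = 0.637). Their 95% intervals were 0.858- to 2.01-fold and 0.520- to 1.31-fold. C1R shares 2859 bases on the same strand with C1RL in the GENCODE annotation, so reads there may have been given to either gene or to neither.

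C5, the entry to the terminal pathway (chromosome 9, 120952335 to 121074865), was close to the limit of detection. Its counts were 4, 17 and 9 in PBS cells and 6, 11 and 12 in treated cells, so both groups spanned a similar low range. Its log2 fold change was 0.01 (SE 0.53, adjusted p = 0.991 in edgeR), with a 95% interval of 0.465- to 2.19-fold, and its sign turned when single libraries were left out. A change of the size seen for C3 was not detectable in C5 at this depth.

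**Figure D2:**
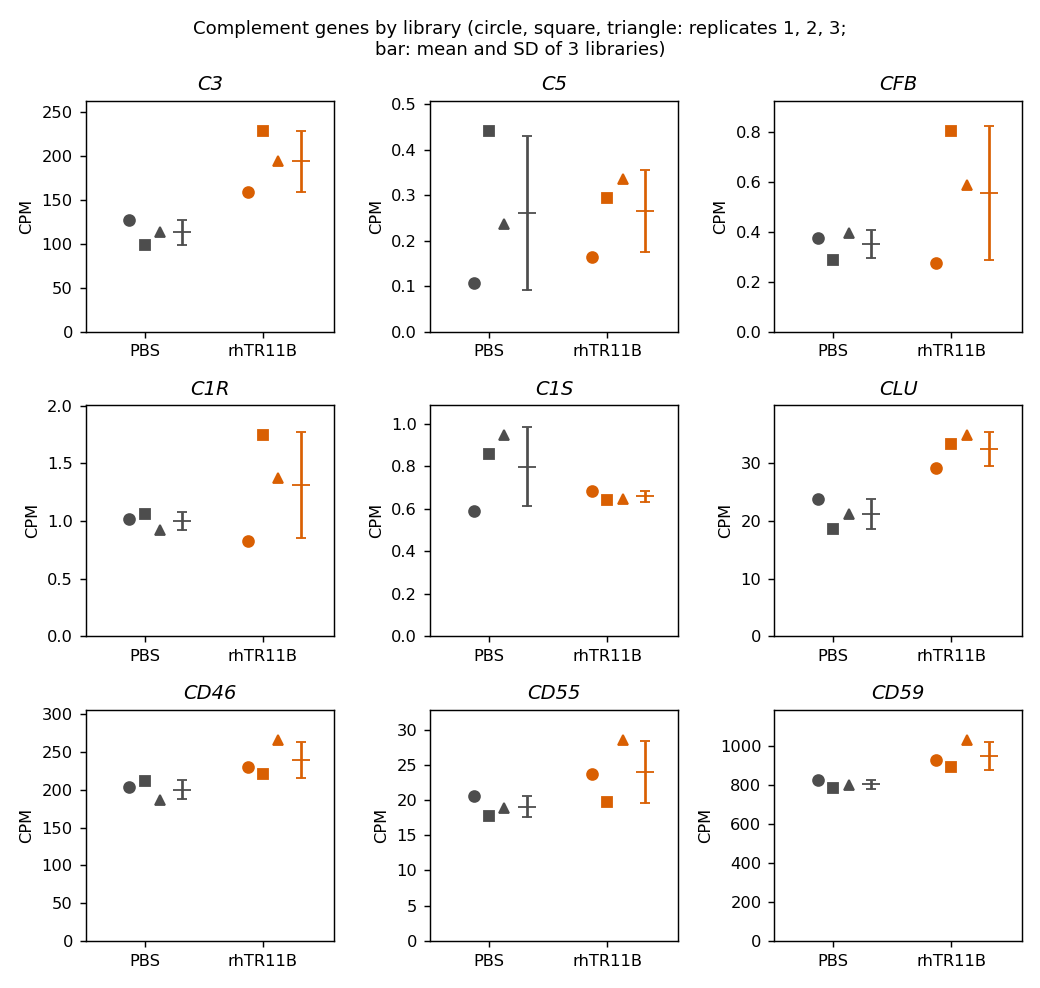
CPM of each complement gene in each library, with circles, squares and triangles for replicates 1, 2 and 3, and the mean with SD beside them. C3, CLU, CD46 and CD59 are higher in all 3 rhTR11B libraries than in all 3 PBS libraries, and the groups overlap for C5, CFB, C1R, C1S and CD55.

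The membrane regulators had log2 fold changes between 0.24 and 0.33, and CD59 alone of the 3 passed the test. CD59 (chromosome 11, 33703010 to 33736479), the inhibitor of the membrane attack complex, had 825 CPM in PBS replicate 1, 783 in replicate 2 and 797 in replicate 3. With rhTR11B it had 925, 894 and 1030.0 CPM, all above the PBS libraries, and replicate 3 was the highest. It rose 1.18-fold (log2 fold change 0.24, SE 0.07; edgeR adjusted p = 0.0474). In edgeR the call was not kept without PBS replicate 1, 2 or 3 (adjusted p = 0.0827, 0.217 and 0.195). Nor was it kept with library size alone (adjusted p = 0.0554), a mean of at least 5 CPM (adjusted p = 0.0542) or a replicate term (adjusted p = 0.0538). The limma-trend fits of FPKM did not keep it either (adjusted p = 0.0896 to 0.246). It was kept without each rhTR11B library (edgeR adjusted p = 0.0264 to 0.0457). CD59 shares 19458 bases with another protein-coding GENCODE model on the same strand, not analysed here, so reads there may have been split or left out.

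CD46, the C3b and C4b cofactor (chromosome 1, 207752038 to 207795516), had 203, 211 and 186 CPM with PBS and 231, 221 and 266 CPM with rhTR11B. The groups did not overlap; the closest libraries were PBS replicate 2 and rhTR11B replicate 2. Its log2 fold change was 0.26 (SE 0.07), just short of the threshold in edgeR (adjusted p = 0.0516), and DESeq2 gave adjusted p = 0.0169. CD55, the decay-accelerating factor, lies on the same chromosome at 207321678 to 207360966. It had 20.6, 17.8 and 18.8 CPM with PBS and 23.7, 19.8 and 28.5 CPM with rhTR11B, where rhTR11B replicate 2 fell below PBS replicate 1. Its log2 fold change of 0.33 (SE 0.11) did not pass edgeR's test (adjusted p = 0.0765) and stood at 0.19 without rhTR11B replicate 3 and 0.45 without rhTR11B replicate 2. The DESeq2 adjusted p of CD55 was 0.0496.

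These regulators were the most abundant group and had fold changes of like size, so the 250 bases before their outermost starts in RefSeq (GRCh38.p14) are set side by side. CD59 is at chr11:33736480-33736729 on the minus strand, CD46 at chr1:207751788-207752037 and CD55 at chr1:207321428-207321677, both on the plus strand. Capitals mark TTCNNNGAA in CD59 and the GC box GGGCGG, read on the minus strand, in CD46 and CD55.
CD59: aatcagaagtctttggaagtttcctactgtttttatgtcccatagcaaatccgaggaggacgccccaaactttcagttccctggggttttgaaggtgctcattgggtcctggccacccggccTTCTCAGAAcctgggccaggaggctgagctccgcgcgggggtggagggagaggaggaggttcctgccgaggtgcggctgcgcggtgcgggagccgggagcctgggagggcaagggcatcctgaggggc
CD46: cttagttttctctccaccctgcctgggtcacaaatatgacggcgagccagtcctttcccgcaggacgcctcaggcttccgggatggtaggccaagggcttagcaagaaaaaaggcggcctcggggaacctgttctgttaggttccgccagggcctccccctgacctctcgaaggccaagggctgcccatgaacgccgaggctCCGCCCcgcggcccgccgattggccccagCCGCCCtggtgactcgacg
CD55: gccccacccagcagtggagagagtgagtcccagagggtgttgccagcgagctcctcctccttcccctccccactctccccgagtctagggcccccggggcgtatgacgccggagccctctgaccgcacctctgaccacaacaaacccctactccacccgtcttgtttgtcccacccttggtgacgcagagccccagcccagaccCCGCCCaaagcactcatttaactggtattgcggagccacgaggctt
None of the 3 windows held TATAAA, the kappaB consensus or the C/EBP-type letters TTNNGNAA on either strand, which says only that these letters are not there. CD46 held 2 GC boxes and CD55 had 1, a motif found in 42.2% of the 27326 windows, while CD59 had none. G and C made up 62.0%, 64.8% and 64.0% of the bases for CD59, CD46 and CD55, against a median of 57.6%, and CFB had 60.0%. C1R had 2 matches to TTNNGNAA, which 33.7% of windows hold, and C5 had no match to any of the 5 motifs. C3, C1S and CLU had no entry.

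CLU, the secreted chaperone and fluid-phase inhibitor (chromosome 8, 27596917 to 27614700), had 23.8, 18.6 and 21.2 CPM with PBS and 29.1, 33.3 and 34.8 CPM with rhTR11B. All rhTR11B libraries lay above all PBS libraries. The log2 fold change was 0.61 (SE 0.09), or 1.53-fold, and like that of C3 it is the value that chose the gene. Leaving out PBS replicate 2 gave 0.53 and leaving out PBS replicate 1 gave 0.70, the extremes over single libraries. CLU was less spread among the rhTR11B libraries than C3, with a coefficient of variation of 9.10%, against 12.3% in PBS.

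The genes did not peak in the same treated library. C3, CFB and C1R were highest in rhTR11B replicate 2, while CD46, CD55, CD59 and CLU were highest in rhTR11B replicate 3. For CLU the 2 libraries were close, at 33.3 CPM (1242 counts) in replicate 2 and 34.8 CPM (1239 counts) in replicate 3. CFB had 30 and 21 counts and C1R 65 and 49 in replicates 2 and 3, too few to fix their peak. Relative to its PBS mean, on the log2 scale, C3 stood at 1.01 in rhTR11B replicate 2, where CD55 stood at 0.05, and at 0.78 in replicate 3, where CD55 stood at 0.58. Among the PBS libraries C3 and CLU moved almost in step, at 0.16 and 0.17 in replicate 1, -0.19 and -0.19 in replicate 2 and 0.01 and 0.00 in replicate 3. Their FPKM ratio of C3 to CLU was therefore 2.81, 2.81 and 2.82 in PBS, and 2.88, 3.61 and 2.95 in rhTR11B. PBS replicate 2, lowest for C3, CLU, CD55 and CD59, also had the lowest mitochondrial share of counts (6.63%), and rhTR11B replicate 3, highest for CD46, CD55, CD59 and CLU, the highest (10.4%); the part of that share in these differences was not tested. Without the mitochondrially encoded genes the log2 fold changes of C3, CLU and CD59 were 0.78, 0.62 and 0.25.

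**Figure D3:**
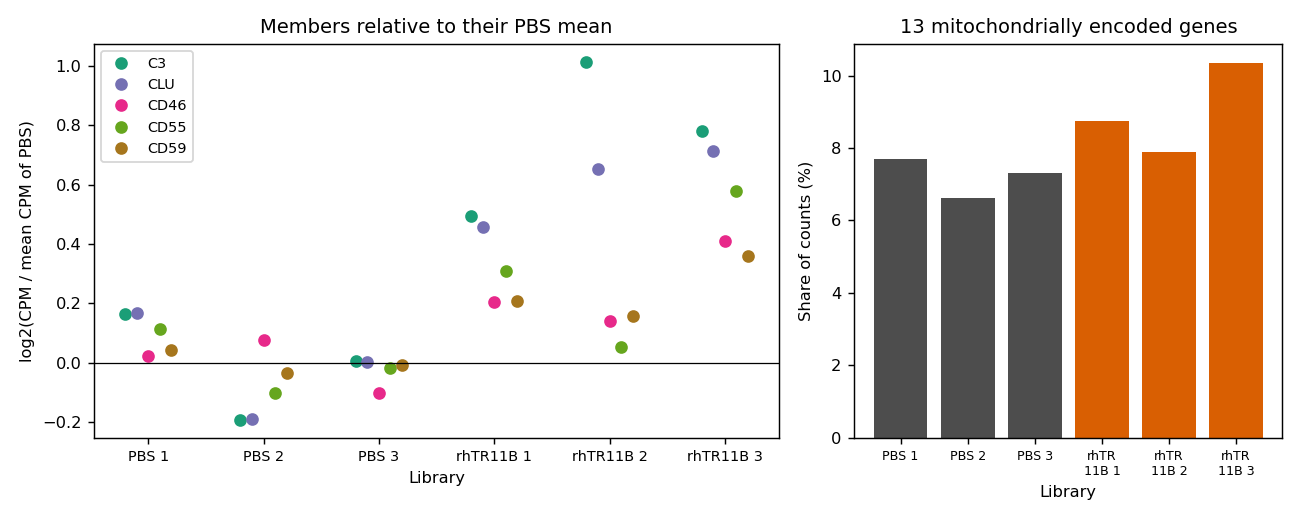
Left, log2 ratio of the CPM of C3, CLU, CD46, CD55 and CD59 in each library to the gene's PBS mean; right, share of counts in the 13 mitochondrially encoded genes. C3 peaks in rhTR11B replicate 2 at 1.01, whereas the membrane regulators and the mitochondrial share peak in rhTR11B replicate 3.

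In FPKM, C3 stood higher relative to the brakes with rhTR11B, a description that follows from the choice of C3. C3 stood at 0.238, 0.196 and 0.221 of the CD59 level in PBS and at 0.266, 0.396 and 0.292 in rhTR11B. CD59 kept 1.56 to 1.80 times the CD46 level in PBS and 1.63 to 1.70 times in rhTR11B, so the ranges overlapped. Of the summed FPKM of the 9 genes, CD46, CD55 and CD59 together held 83.3% to 86.1% in PBS and 76.1% to 81.9% in rhTR11B.

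Of the 9 genes, 3 were called higher and 0 lower in edgeR at an adjusted p under 0.05, where 2.92% of the 13567 tested genes were called higher and 0.678% lower. C3 and CLU were picked for this difference, so nothing is read from a count that holds them, and the counts that follow are over the other 7. CD59 was the 1 of these 7 called higher, and 0 were called lower. Before adjustment, at p under 0.05, 3 of the 7 were higher (CD46, CD55 and CD59) and 0 lower, against 13.8% and 10.3% of tested genes. DESeq2 called the same 3 genes higher and gave the other 4 no adjusted p. Over all 13567 tested genes DESeq2 made more calls than edgeR, 761 higher and 346 lower. For 2 of the 7, CD46 and CD59, all rhTR11B libraries lay above all PBS libraries, as for 15.1% of tested genes, and for 0 they lay below, as for 14% of tested genes. Fold changes were above 0 for 6 of the 7, against 50% of tested genes. Their median was 0.26 on the log2 scale, against 0.00 over all tested genes; these members were chosen with results of these data known, and the values are a description.

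**Figure D4:**
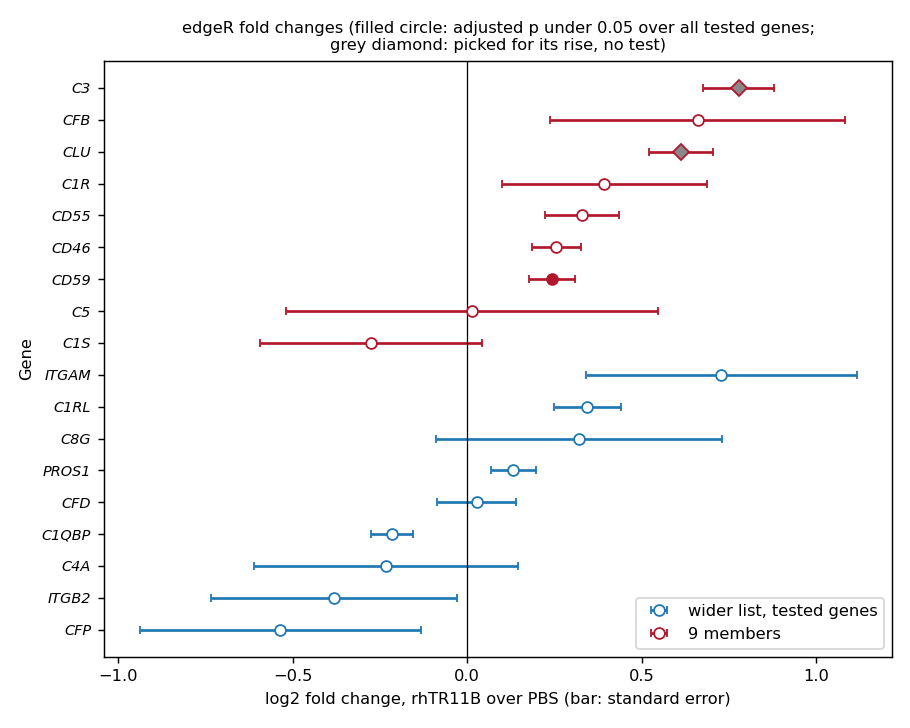
log2 fold change with standard error for the 9 genes (red) and 9 of the 11 tested genes of the wider complement list (blue); filled circles have an adjusted p under 0.05, and grey diamonds mark C3 and CLU, which have no test. CD59 is the only filled circle, and the standard errors of C5, C1S, CFB, C4A and C8G are several times that of CD59.

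The other complement genes were drawn up as a list of 53. Of these, 26 were in the table, 11 had enough counts to test, and the other 27 were not analysed here. edgeR called 0 of the 11 higher and 0 lower. DESeq2 gave 1 call each way, beside 761 higher and 346 lower of all 13567 tested genes. Before adjustment in edgeR (p under 0.05), 1 was higher and 1 lower, against 13.8% and 10.3% of tested genes. The median log2 fold change was 0.13, and 7 of 11 were above 0. The gene nearest to a higher call was C1RL, a C1R-like protease, with 14.3 ± 0.856 CPM in PBS and 18.1 ± 2.17 CPM in rhTR11B (log2 fold change 0.34, SE 0.10, edgeR adjusted p = 0.0519). It is the neighbour that overlaps C1R. The gene nearest to a lower call was C1QBP, a mitochondrial matrix protein that was named for binding the globular heads of C1q, with 245 ± 7.46 and 211 ± 12.6 CPM (log2 fold change -0.21, SE 0.06, adjusted p = 0.0539). For both genes, named for their small p, the 3 libraries of one group lay wholly apart from the 3 of the other. Of the 11, rhTR11B lay wholly above PBS for 2 and wholly below for 2, against 15.1% and 14% of tested genes. With rhTR11B replicate 1 left out both passed (adjusted p = 0.0114 and 0.0215), and with any other library left out neither did (adjusted p = 0.0699 to 0.205 for C1RL and 0.0554 to 0.215 for C1QBP).

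C1QBP had the highest level of that list, 211 ± 5.94 FPKM in PBS, followed by PROS1 at 25.9 ± 1.39 FPKM, the anticoagulant that circulates in part with the C4b-binding protein. CFD, the protease that activates CFB, had 8.97 ± 1.14 FPKM in PBS and 9.04 ± 1.04 in rhTR11B (log2 fold change 0.03, SE 0.11, adjusted p = 0.913 in edgeR; 95% interval 0.864- to 1.20-fold). PROS1 had a log2 fold change of 0.13 (SE 0.07, adjusted p = 0.219). Counts of C4A were 19, 18 and 17 in PBS cells and 11, 15 and 18 in treated cells, and those of C4B were 16, 7 and 11 against 5, 8 and 8. These copies are nearly identical and may exchange reads, so both values are uncertain.

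Of the 26 genes of this list in the table, 15 averaged at most 10 counts. C2 had 3 to 9 counts in every library, MASP2 0 to 3, C6 0 or 1 and SERPING1, the C1 inhibitor, 0 or 1. C8G, of the terminal pathway, had 9 to 19 counts. The C5a receptor genes C5AR1 and C5AR2 had 0 to 4 and 0 or 1 counts, at or near the limit of 3 counts. C3AR1, the C3a receptor, and CFI were not analysed here.

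Hepatocyte-type plasma proteins, the class to which C3 and CFB belong, gave 25 genes in the table of a list of 48, and 10 were tested. edgeR called 0 of them higher and 0 lower. DESeq2 gave 1 higher call, beside 761 of all 13567 tested genes. Before adjustment in edgeR (p under 0.05), 2 were higher and 0 lower, against 13.8% and 10.3% of tested genes. Their median log2 fold change was 0.47, with 8 of 10 above 0, most of them at low counts. SERPINA1 (alpha-1-antitrypsin) counted 113, 63 and 73 in PBS cells and 126, 165 and 108 in treated cells (log2 fold change 0.73, SE 0.22, edgeR adjusted p = 0.0645). Its groups did not overlap in CPM, at 2.19 ± 0.732 and 3.64 ± 0.713 CPM, as for 4 of the 10 and for 15.1% of tested genes. The margin was narrow, with PBS replicate 1 at 3.02 and rhTR11B replicate 3 at 3.03 CPM. In FPKM the groups overlapped, at 0.832 in PBS replicate 1 and 0.815 in rhTR11B replicate 3. CP (ceruloplasmin) had 6, 5 and 14 counts against 21, 24 and 16 (log2 fold change 1.33, SE 0.45; adjusted p = 0.0851). The acute phase protein SAA1 had 47, 33 and 29 against 51, 36 and 73 (adjusted p = 0.229). ITIH4, the coagulation factor gene F12 and the siderophore-binding LCN2 had log2 fold changes of 0.46, 0.15 and 0.16 (adjusted p = 0.231, 0.451 and 0.711). The 4 of 8 hepatocyte markers in the table summed to 0.472 to 0.883 CPM with PBS and 0.870 to 1.18 CPM with rhTR11B, nearly all CYP2E1, and ALB, APOA1 and HNF4A had 0 to 2 counts.

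Among 28 tested cytokines, receptors and transcription factors known to induce complement genes, 3 rose in edgeR and 0 fell, or 10.7% higher beside 2.92% of all tested genes. Before adjustment (p under 0.05), 9 were higher and 0 lower, against 13.8% and 10.3% of tested genes. The median log2 fold change was 0.06. The 3 were OSMR, the oncostatin M receptor, from 402 ± 15.2 to 489 ± 50.8 CPM (log2 fold change 0.28, adjusted p = 0.0365), IFNGR1, an interferon gamma receptor chain, from 53.3 ± 4.42 to 65.1 ± 7.03 CPM (adjusted p = 0.0484), and the cytokine TNF (log2 fold change 0.26, adjusted p = 0.0474). All rhTR11B libraries lay above all PBS libraries for 11 of the 28, these 3 included, against 15.1% of tested genes. For the 3 this adds nothing to the call, which rests on the same libraries. Without PBS replicate 2, PBS replicate 3 or rhTR11B replicate 2 none of the 28 was called, without rhTR11B replicate 3 there was 1, OSMR, and without rhTR11B replicate 1 there were 7. LIFR and its ligand LIF, of the same cytokine family as oncostatin M, stood at 0.24 and 0.20 on the log2 scale (adjusted p = 0.0590 and 0.0967). IFNGR2, the other interferon gamma receptor chain, had 89.6 FPKM in PBS and 92.7 in rhTR11B on average (adjusted p = 0.500). JAK1 had a log2 fold change of -0.03 (adjusted p = 0.772). NFKB1, RELA, STAT3 and CEBPB, named here after their values were seen, had -0.07, -0.03, 0.02 and -0.09 (adjusted p = 0.444 to 0.843). These genes do not stand for the list, in which 20 of 28 fold changes were above 0, against 50% of tested genes.

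**Figure D5:**
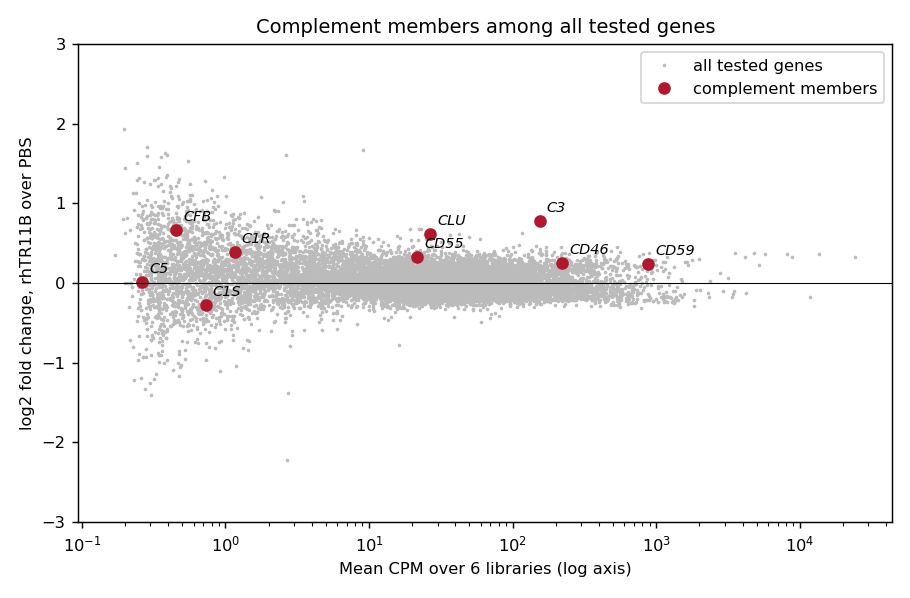
log2 fold change of all tested genes (grey) against mean CPM on a log axis, with the 9 complement genes in red. C3 at 0.78 lies above the bulk of genes of similar CPM, while CD46 and CD59 at 0.26 and 0.24 lie at its upper side; 2 genes fall outside the plotted range.

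The genes whose log2 CPM followed C3 most closely over the 6 libraries, among 10367 genes with a mean of at least 5 CPM, were SIGLEC15, PHF21A, PEAK1, MROH1 and ADAMTS7, with Pearson's r from 0.988 to 0.990. For CLU they were TGFBR2, LTBP2, COL6A2, SLC25A37 and ECE1, with r from 0.995 to 0.996. Such r over 6 libraries of 2 groups is set largely by the difference between the groups for which C3 and CLU were chosen, and it is given as a description. The fold changes of these genes were smaller than those of their partner: 0.12 to 0.66 for the genes beside C3 and 0.21 to 0.46 for those beside CLU, on the log2 scale.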

How the data were processed

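RNA of A549 cells was sequenced in 6 libraries, 3 with PBS and 3 with rhTR11B. The authors' deposited tables hold read counts and FPKM values per gene symbol, made on GRCh38. The submitters' processing notes name HTSeq, HISAT, fastp, DESeq2 and R 3.2.0. Their roles, the annotation and the strand setting: not given in the sources used here. The deposited FPKM equal count over a gene length and the library total in 100% of cases (relative tolerance 0.001). Every symbol listed has at least 1 count. Positions and promoters come from RefSeq (GRCh38.p14), overlaps from GENCODE 29; all 9 genes matched and 6 had a promoter entry.

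Counts were fitted with edgeR 4.0.16 (R 4.3.3): filterByExpr with minimum count 10, TMM scaling, group as the only term, quasi-likelihood test, Benjamini-Hochberg adjustment over 13567 genes, threshold 0.05. CPM use the TMM-scaled library sizes, and standard errors are the log2 fold change over the square root of F; 95% intervals use the test's degrees of freedom. Levels of different genes were compared only as FPKM. The common BCV was 0.0656. Chi-square over its degrees of freedom was 5.33 to 26.1 for pairs of the same group, above sampling noise, and each library was counted separately. The fits were tested on simulated data. Alternatives were other scalings and filters, DESeq2 1.42.0, limma 3.58.1 (voom, and trend on log2(FPKM + 1) or log2(FPKM + 0.1)), a replicate term, no mitochondrial genes, a threshold of 0.1 and leaving out each library.

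The members and the 3 lists (other complement genes, plasma proteins, inducers) were chosen with earlier results of these data known. Named genes are the 9 members, in each list up to 4 of smallest p and up to 4 with the highest mean FPKM, C4A, C4B, C3AR1, C5AR1 and CFI, genes near 0 counts, and for C3 and CLU the 5 genes of highest correlation; any other was named after its values were seen. A few of the genes so named are not reported here.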

Additional observations from a re-analysis of the deposited data

How the results depend on the processing

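C3 and CLU kept their sign under all 17 alternatives run for each, which is no support, since both were picked for their rise in these libraries. Leaving out single libraries gave 0.64 to 0.90 for C3 and 0.53 to 0.70 for CLU. The other settings gave 0.73 to 0.79 for C3 and 0.54 to 0.62 for CLU. CD59 passed under 8 of 17, CD46 under 5 and CD55 under 4, always with a positive fold change. With all 6 libraries the genes called higher and lower were 396 and 92; with DESeq2 761 and 346, with no filter 940 and 483, with a mean of at least 5 CPM 205 and 26, at an adjusted p under 0.1 1056 and 556, and with limma-trend 62 and 21 on log2(FPKM + 1), 64 and 22 on log2(FPKM + 0.1) and 0 and 0 on log2(FPKM + 1) without a filter, where 3073 genes had an unadjusted p under 0.05. Members called higher were 5 with DESeq2, 5 with no filter, 5 at 0.1 and 0 with unfiltered FPKM, against 3. Inducers called higher, 3 of 28 in the report, were 1 of 28 with library size alone, 5 of 28 with DESeq2 and 8 of 28 at 0.1. They were 7 of 34 with no filter and 0 of 26 with 5 CPM. The FPKM settings gave 0 of 25, 0 of 25 and 0 of 34. Of the other complement genes (11 tested, 26 with no filter), DESeq2, no filter and a threshold of 0.1 each called 1 higher and 1 lower. Library size alone called 1 lower, against 0 and 0. Plasma proteins called higher were 1 of 10 with DESeq2, 1 of 25 with no filter and 2 of 10 at 0.1, against 0 of 10. The cause of these shifts was not tested.

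With the replicate number as a block, 774 genes were higher and 252 lower; other complement genes gave 1 higher and 1 lower, plasma proteins 1 higher, inducers 6 higher and members 4 higher (C3, CLU, CD46 and CD55, adjusted p = 0.0212 for CD46 and 0.0153 for CD55, while CD59 had 0.0538). The labels do not say whether same-numbered libraries were paired. Correlations of their deviations were -0.10, 0.05 and -0.01, which cannot settle it with 3 libraries per group. Leaving out 1 library gave 9 to 903 genes higher and 3 to 427 lower, with the fewest calls without PBS replicate 3. At an unadjusted p under 0.05 that edgeR fit had 2424 genes, and the fewest were 2258 without PBS replicate 2. Members called higher ran from 1 (C3, without PBS replicate 3) to 5 (without rhTR11B replicate 2), other complement genes from 0 to 1 each way, plasma proteins from 0 to 1 and inducers from 0 to 7. The sign of C5 turned with library size alone (-0.0039), and it ran from -0.35 to 0.61 with 1 library left out; CFD ran from -0.0788 to 0.10 and JAK1 from -0.0624 to 0.0033. Counts of 4 to 65 per library limit C5, CFB, C1R and C1S, whose intervals exclude neither no change nor, except for C1S, a change of 1.5-fold upward.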
